A study of Mus musculus with 34 samples.

Results

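The genes described here are 8 transcription factors that set the identity of the intestinal epithelium: Cdx1, Cdx2, Hnf4a, Hnf4g, Gata4, Gata6, Klf5 and Elf3. They were chosen by name, and each was measured by the mean H3K4me3 signal within 1000 bp of its 5′ end and by the extent of the mark there. They are 8 of 21938 protein-coding genes of the GENCODE M21 annotation of the mouse genome (mm10). H3K4me3, trimethylation of lysine 4 of histone H3, was profiled by CUT&RUN in villus cells scraped from the small intestine of C57BL/6J mice, with 2 wild-type and 2 ApcMin/+ libraries from normal-appearing tissue. In CUT&RUN an antibody against the mark recruits a nuclease joined to protein A, which cuts out the DNA around marked nucleosomes, and these fragments are sequenced. ApcMin/+ mice were on the C57BL/6J background and carried 1 mutant allele of Apc, a negative regulator of Wnt signalling, in every cell of the body, so the genotype is not restricted to the epithelium. The labels give an age of 5 weeks for both genotypes (the methods give another age) and no segment of the small intestine.

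H3K4me3 is placed around the starts of genes in use and is generally absent from silent promoters. It is usually a peak on either side of the start, but at genes that define a cell type it can spread over the gene body. CDX1 and CDX2 are homeobox factors that separate intestine from stomach, HNF4A and HNF4G are paired nuclear receptors of absorptive cells, GATA4 and GATA6 are zinc finger factors of which GATA4 belongs to the proximal small intestine, KLF5 is a Krüppel-like factor of crypt and villus cells, and ELF3 is an epithelial ETS factor. Most of them bind the regulatory DNA of the same enterocyte genes and of one another.

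The RefSeq promoters of Cdx2, Hnf4a and Elf3, the 3 genes with an entry in the promoter table used, are printed here because the mark was measured over them and because Hnf4a has separate starts that are compared further on. Each runs from 250 bases before to 50 bases after a RefSeq start on GRCm38.p6, 5′ to 3′ on the strand of the gene. They are chr5:147307200-147307499 (minus strand) for Cdx2, chr2:163506607-163506906 (plus strand) and chr2:163546905-163547204 (plus strand) for Hnf4a, and chr1:135258423-135258722 (minus strand) for Elf3. Capitals mark every match on either strand to 4 motifs. The GC box was searched as GGGCGG. For GATA factors the letters searched were AGATAA. Sites of Krüppel-like factors were searched as CCACCC. The letters for ETS factors were AGGAAG.
Cdx2: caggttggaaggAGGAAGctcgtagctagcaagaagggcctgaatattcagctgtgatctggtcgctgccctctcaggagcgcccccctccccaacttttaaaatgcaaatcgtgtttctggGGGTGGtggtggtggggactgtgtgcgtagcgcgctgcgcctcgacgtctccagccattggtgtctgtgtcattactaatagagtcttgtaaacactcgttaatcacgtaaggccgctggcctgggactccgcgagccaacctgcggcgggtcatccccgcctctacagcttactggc
Hnf4a, gene 5′ end: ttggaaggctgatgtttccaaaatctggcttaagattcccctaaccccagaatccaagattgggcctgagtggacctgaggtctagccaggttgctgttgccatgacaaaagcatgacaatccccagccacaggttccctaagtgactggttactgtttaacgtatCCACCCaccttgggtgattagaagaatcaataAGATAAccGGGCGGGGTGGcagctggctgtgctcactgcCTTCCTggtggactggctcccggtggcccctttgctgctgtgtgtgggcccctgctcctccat
Hnf4a, downstream start: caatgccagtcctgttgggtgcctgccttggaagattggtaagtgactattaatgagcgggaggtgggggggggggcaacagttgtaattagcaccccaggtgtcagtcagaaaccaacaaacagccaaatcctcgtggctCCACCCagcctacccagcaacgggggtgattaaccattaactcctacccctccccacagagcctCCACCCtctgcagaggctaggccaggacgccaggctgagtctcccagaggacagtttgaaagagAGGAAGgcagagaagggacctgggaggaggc
Elf3: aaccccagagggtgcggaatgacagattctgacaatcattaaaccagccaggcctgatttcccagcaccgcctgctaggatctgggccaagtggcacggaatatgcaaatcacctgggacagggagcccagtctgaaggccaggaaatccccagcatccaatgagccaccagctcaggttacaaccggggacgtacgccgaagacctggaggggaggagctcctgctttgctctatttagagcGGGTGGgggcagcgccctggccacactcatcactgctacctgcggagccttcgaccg

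The letters CCACCC were found in 4 of these 4 sequences, against 31.5% of 32817 promoters of the same length in the table. AGGAAG was found in 3 of the 4 and in 35.4% of all promoters. The Hnf4a promoter at the gene 5′ end was the one of the 4 with AGATAA, 52 bases upstream of the start, and with GGGCGG, 44 bases upstream, which were found in 11.2% and 35.6% of all promoters. Its GGGCGG shares 1 base with a CCACCC match on the other strand. Another 4 motifs had no match in the sequences printed. The TATA box, searched as TATAAA, was found in 13.6% of all promoters. The other GATA form, with the letters TGATAA, was found in 9.06%. A CDX site, searched as TTTATNG, was found in 10.9% of promoters. An HNF4 site, with the letters CAAAGTCCA, was found in 0.475%. The CpG ratio, observed over that from base composition, was 0.731 at Cdx2, above 73.4% of promoters, and 0.460 at Elf3, above 55.4%. Both Hnf4a promoters were poor in CpG, with ratios of 0.183 at the gene 5′ end and 0.163 at the downstream start, against a median of 0.383 over all promoters.

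The tracks hold coverage scaled by the authors to 10000000 tags, so 1 unit of signal means the same number of normalized fragments in each library. Depth ranged from 1430000 tags in wild-type replicate 1 to 5470000 in ApcMin/+ replicate 2, with 4790000 in wild-type replicate 2 and 3700000 in ApcMin/+ replicate 1. ApcMin/+ replicate 1 stood apart from the rest: 43.3% of its signal lay in enriched regions, against 11.9% to 22.6% in the other 3 libraries, and the median tested promoter had a signal of 13.2 there and of 3.06 to 4.53 in the others. A promoter was tested where its mean signal over the 4 libraries was at least 2, which 9930 promoters and 8 of the 8 transcription factors passed. Nothing in the labels says that replicates of a genotype shared a litter or a day, and p-values measure the spread between these 4 libraries. The 6 epithelial markers (5 with a mean signal of at least 2) summed to 23.7 and 16.3 in wild-type replicates 1 and 2 and to 74.9 and 19.7 in ApcMin/+ replicates 1 and 2, with Krt19 at 0 in wild-type replicate 1. Of 20 markers of mesenchyme, immune cells and endothelium, 0 reached a mean of 2. Mesenchymal markers summed to 2.44 and 4.23 in wild type and to 3.68 and 5.64 in ApcMin/+, with Col1a1, Col3a1, Pdgfra and Myh11 at 0 in wild-type replicate 1. Immune markers summed to 5.35 to 6.06 and 5.73 to 7.42 (Ptprc at 0 in wild-type replicate 1), and endothelial markers to 1.72 to 2.92 and 2.61 to 3.23 (Cdh5 at 0 in the same library).

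Levels are given below as signal in 4 libraries in the order wild-type replicate 1, wild-type replicate 2, ApcMin/+ replicate 1 and ApcMin/+ replicate 2. All 8 genes carried the mark in all 4 libraries. Signal at their 5′ ends ran from 2.79 to 10.4 in wild-type replicate 1, from 2.90 to 6.08 in wild-type replicate 2, from 9.97 to 32.3 in ApcMin/+ replicate 1 and from 3.59 to 6.97 in ApcMin/+ replicate 2. The mean signal away from enriched regions and gene starts was 0.196 to 0.321, so every value was far above background. The median over the 8 genes was 1.10 to 1.65 times that of the median tested promoter. In these scraped villus cells, measured in bulk, fewer cells that use a gene and less mark per cell cannot be told apart.

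**Figure D1:**
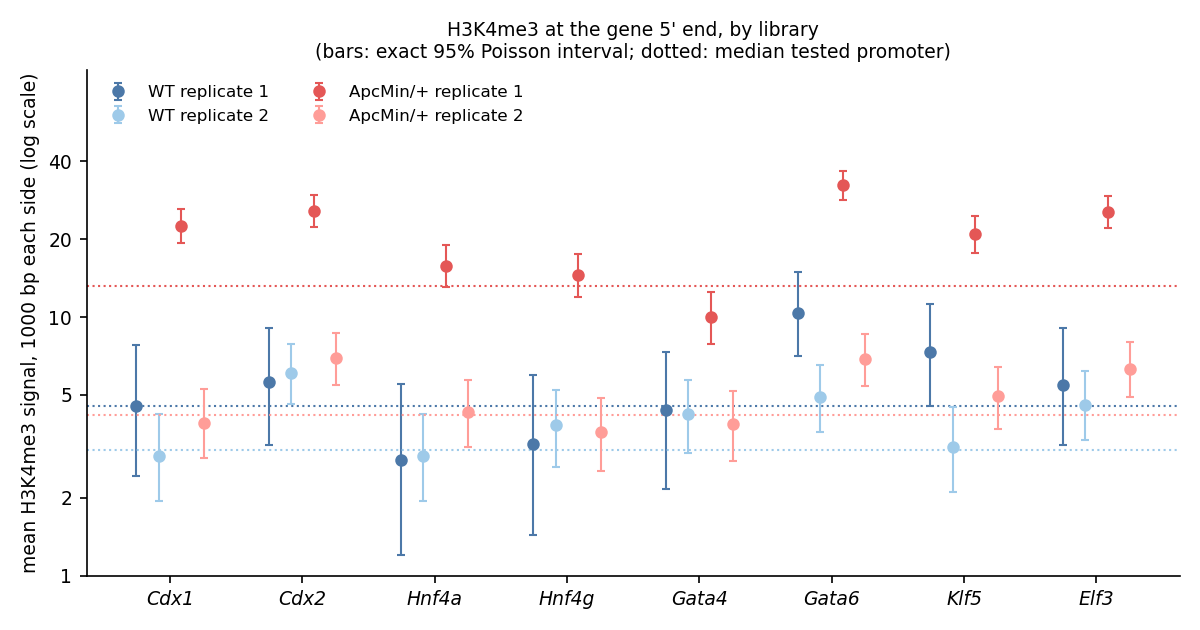
Mean H3K4me3 signal within 1000 bp of the 5′ end (log axis) of the 8 genes in the 4 libraries. Points are libraries, bars are exact 95% Poisson intervals of the fragments behind each value (counting error only) and dotted lines are each library's median tested promoter. ApcMin/+ replicate 1 is the highest library at 8 of 8 genes, and Gata4 is the gene at which it lies below its own dotted line (9.97 against 13.2).

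Cdx2 (ENSMUSG00000029646.3, chr5:147300805-147307270, minus strand), the homeobox factor without which intestinal epithelium takes on stomach features, had signals of 5.62, 6.08, 25.8 and 6.97. These rested on 16, 58, 191 and 76 fragments, with an exact 95% interval of 9.15 to 26.0 fragments in the shallowest library. Both ApcMin/+ values lay above both wild-type values, and the level exceeded that of 90.4% to 96.0% of tested promoters in 3 libraries and of 65.6% in wild-type replicate 1. Cdx1 (ENSMUSG00000024619.8, chr18:61018862-61036199, minus strand), its paralog, had lower signals of 4.53, 2.90, 22.5 and 3.88, close to the median tested promoter in 3 libraries and 1.71 times it in ApcMin/+ replicate 1. The genotypes overlapped at Cdx1. Cdx4, a further paralog that acts in the embryo, had 0.091 to 0.731.

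Hnf4a (ENSMUSG00000017950.16, chr2:163506808-163572910, plus strand) had signals of 2.79, 2.91, 15.8 and 4.28 at its 5′ end, from 8, 28, 117 and 47 fragments. Both ApcMin/+ libraries were above both wild-type libraries. Hnf4g (ENSMUSG00000017688.14, chr3:3508030-3658052, plus strand), the paralog found in intestine but hardly in liver, had 3.22, 3.81, 14.5 and 3.59, and here the genotypes overlapped because ApcMin/+ replicate 2 lay below wild-type replicate 2.

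Gata6 (ENSMUSG00000005836.10, chr18:11052064-11085635, plus strand) had the highest mean signal of the 8, with 10.4, 4.90, 32.3 and 6.88, above 86.7% to 97.5% of tested promoters. It lay below Cdx2 in wild-type replicate 2 (6.08 at Cdx2) and in ApcMin/+ replicate 2 (6.97 at Cdx2). The wild-type replicates differed more from each other than the wild-type replicate 1 did from ApcMin/+ replicate 2, and the genotypes overlapped. A divergent gene of unstated function, 1010001N08Rik, overlaps its start on the other strand, and the mark does not tell the strands apart. Gata4 (ENSMUSG00000021944.15, chr14:63198922-63271692, minus strand) had 4.35, 4.21, 9.97 and 3.84. Apart from ApcMin/+ replicate 1 the libraries lay within 3.84 to 4.35, and ApcMin/+ replicate 2 was the lowest.

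Klf5 (ENSMUSG00000005148.8, chr14:99298691-99315036, plus strand) had 7.32, 3.15, 20.9 and 4.94, with ApcMin/+ replicate 2 between the wild-type libraries. Elf3 (ENSMUSG00000003051.13, chr1:135253575-135258568, minus strand) had 5.48, 4.56, 25.6 and 6.32, with both ApcMin/+ libraries above both wild-type libraries. An antisense gene, Gm26642, overlaps the whole of Elf3, but its own start lies outside the stretch measured.

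Ordered by the mean log2 ratio to each library's median tested promoter, the genes ran Gata6, Cdx2, Elf3, Klf5, Cdx1, Gata4, Hnf4g and Hnf4a, from 1.96 to 0.921 times the median promoter (geometric means). Gata6 exceeded Hnf4a in 4 of 4 libraries, by 0.94 ± 0.47 on the log2 scale (SD, n = 4), with p = 0.125 in an exact permutation test with signs flipped, the smallest that 4 libraries can give. Of the neighbours in the order, Cdx2 and Elf3 kept their order in 4 of 4 libraries (difference 0.13 ± 0.15, exact permutation p = 0.125, n = 4). The other 6 neighbouring pairs held it in 2 or 3 libraries, with exact permutation p of 0.375 to 1. At no neighbouring pair, Cdx2 and Elf3 included, was the mean difference larger than its SD. The promoters whose 4 values lay closest to the per-library median of the 8 genes were Cdkn2c, Snx20 and Arhgdia, at Euclidean distances of 0.072, 0.112 and 0.125 on the log2 scale over 4 libraries.

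Several of these genes have more than one annotated coding start, and the 5′ end was not where the mark was highest. Hnf4a is read from an upstream promoter at the gene 5′ end, known as P2, and from a downstream promoter, known as P1, which gives the isoforms of adult liver and gut. The downstream start, 40.4 kb into the gene and within intron 1 of the upstream transcript, had signals of 5.04, 3.86, 24.5 and 5.25. Another start at 43.3 kb had 7.89, 3.12, 33.6 and 6.38. Both exceeded the gene 5′ end in 4 of 4 libraries (exact permutation p = 0.125 with signs flipped for each, the smallest possible). Within 500 bp of the starts, the one at 43.3 kb did so in 3 of 4. Of the fragments in the windows at the 5′ end and at the 40.4 kb start together, the latter held 63.6%, 56.9%, 60.7% and 54.8%. The widest exact binomial (Clopper-Pearson) 95% interval was 40.7% to 82.8%, in wild-type replicate 1, and the narrowest 54.9% to 66.3%, in ApcMin/+ replicate 1. These shares did not differ between genotypes beyond the replicates, at 60.3% ± 4.75 in wild type and 57.8% ± 4.19 in ApcMin/+ (SD, n = 2 each, exact permutation p = 0.667).

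Over the 300 bases printed above the order was the other way round. The Hnf4a sequence at the gene 5′ end had signals of 6.92, 5.86, 21.1 and 8.66, and that at the downstream start 0.715, 3.09, 14.1 and 2.86, which was lower in 4 of 4 libraries. The downstream mark lay beyond that start instead: it formed a region of 7.0 kb from 39.4 to 46.4 kb into the gene (chr2:163546201-163553200), with a mean signal of 6.46, 3.43, 26.4 and 5.87. Between the starts, a 5.0 kb region (chr2:163537601-163542600) with 4.86, 3.36, 15.6 and 5.28 held the start of the antisense gene Hnf4aos, so its mark cannot be assigned to Hnf4a.

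Gata4 also had a stronger start downstream. It lies 26.4 kb into the gene, within intron 1 of the transcript from the 5′ end, and had 11.1, 7.22, 38.3 and 8.01, above the gene 5′ end in 4 of 4 libraries (exact permutation p = 0.125 with signs flipped). That start was also above the 5′ end of Gata6, the highest of the 8 by mean signal, in each library. Its share of the fragments at both was 72.7%, 63.3%, 79.3% and 67.7%, or 68.0% ± 6.66 in wild type and 73.5% ± 8.23 in ApcMin/+ (SD, n = 2 each, exact permutation p = 0.667). The mark there spanned 9.2 kb (chr14:63239601-63248800), against 4.4 kb at the 5′ end (chr14:63267801-63272200). The last coding start, at 58.1 kb, had 0, 1.27, 0.355 and 0.548, which is near background.

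Hnf4g has a second start 126.1 kb into the gene, also within intron 1, with 4.88, 2.76, 24.1 and 4.65. It was above the 5′ end in 3 libraries and below it in wild-type replicate 2, with shares of 60.9%, 41.9%, 62.4% and 56.7% (exact permutation p = 0.375 with signs flipped). The mark there covered 4.6 kb (chr3:3633901-3638500), against 2.5 kb at the 5′ end (chr3:3507501-3510000). Gata6 has a start 980 bp downstream with 16.0, 6.21, 38.7 and 9.13, within the same marked stretch. Cdx1 and Cdx2 have 1 coding start each, and those of Klf5 and Elf3 lie within 500 bp.

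**Figure D2:**
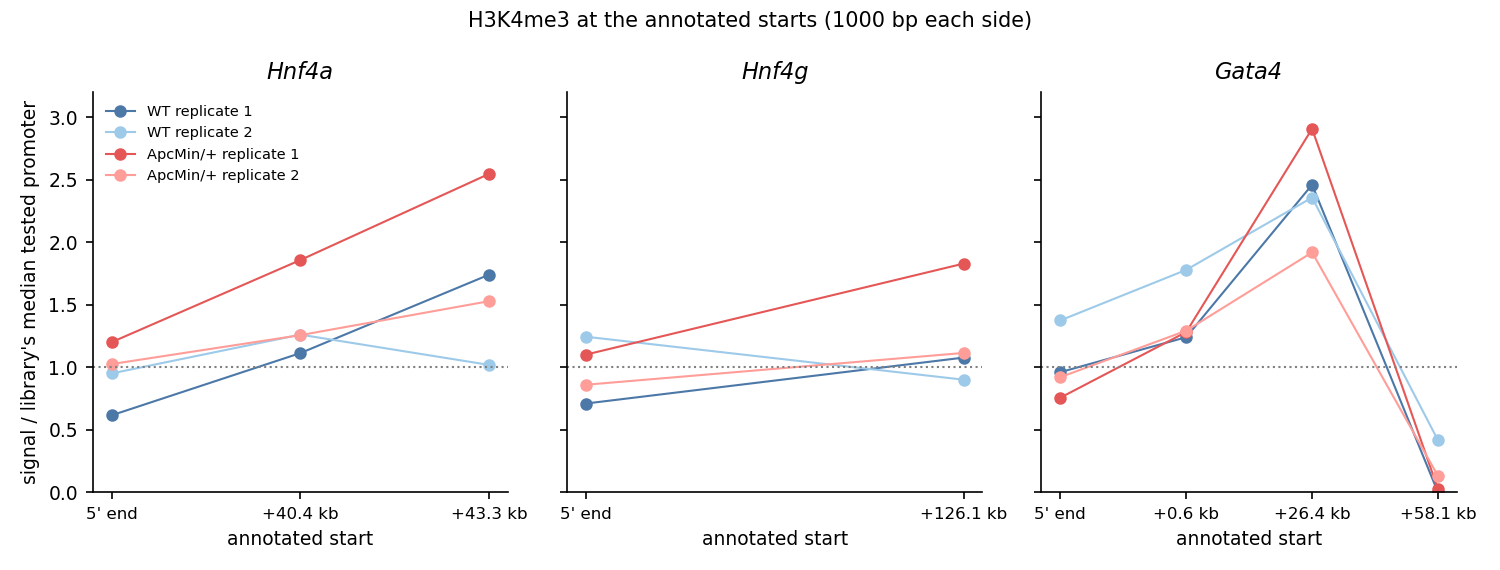
Mean H3K4me3 signal within 1000 bp of the annotated coding starts of Hnf4a, Hnf4g and Gata4, divided by each library's median tested promoter. Points are libraries, lines join the starts of 1 library and the dotted line is the median promoter. The Gata4 start at +26.4 kb reaches 1.92 to 2.91 times the median promoter, against 0.757 to 1.37 at the 5′ end.

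The extent of the mark, the stretch at the 5′ end where the smoothed signal was at least 5 times the library's genome-wide mean, set several of these genes apart from most others more than their level did. In the mean of the 4 tracks it was 12.3 kb at Klf5, 12.1 kb at Gata6, 11.2 kb at Cdx2 and 8.7 kb at Elf3, against a median of 1.8 kb over 12295 marked genes. These 4 genes were longer than the 95th percentile of 4.3 kb, which 4.80% of marked genes exceeded. Each was longer than 99.7% to 99.9% of marked genes. Gata4 (4.2 kb) and Cdx1 (4.0 kb) came just below that percentile, and Hnf4a (3.0 kb) and Hnf4g (2.1 kb) well below. By level the order was different: Klf5, the longest in the mean of the tracks, stood above only 52.6% to 80.8% of tested promoters. Among single libraries Klf5 was the longest only in ApcMin/+ replicate 1 (13700 bp, against 12700 bp at Gata6). In wild-type replicates 1 and 2 and ApcMin/+ replicate 2 it measured 5300, 5400 and 8100 bp. Gata6, Cdx2 and Elf3 were each longer there, with 5600, 5600 and 9500 bp at Elf3.

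The mark lay mostly downstream of the start. At Cdx2 it reached from 2930 bp upstream to 8269 bp downstream, over the whole gene and 1804 bp past its end, and in 2 kb on each side 73.3% to 92.9% of the signal was downstream. At Elf3 it began 832 bp upstream, covered the whole gene and ran 2874 bp past its end. At Klf5 it covered 56.3% of the gene, with 3315 bp in exons and 5895 bp in introns. Gata6 was more even, with 4763 bp upstream and 7336 bp downstream, and 53.6% to 69.5% of the signal in 4 kb was downstream. At Gata4 508 bp lay upstream, and 79.8% to 94.6% of the signal in 4 kb was downstream. A separate region of 3.5 kb lay 5.7 to 9.2 kb upstream of Cdx2 (chr5:147313001-147316500), within the neighbouring gene Urad and holding no gene start. It had a mean signal of 2.39, 3.44, 17.3 and 3.63. Both ApcMin/+ values were above both wild-type values there, as at 15.2% of the 55851 enriched regions of the genome.

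**Figure D3:**
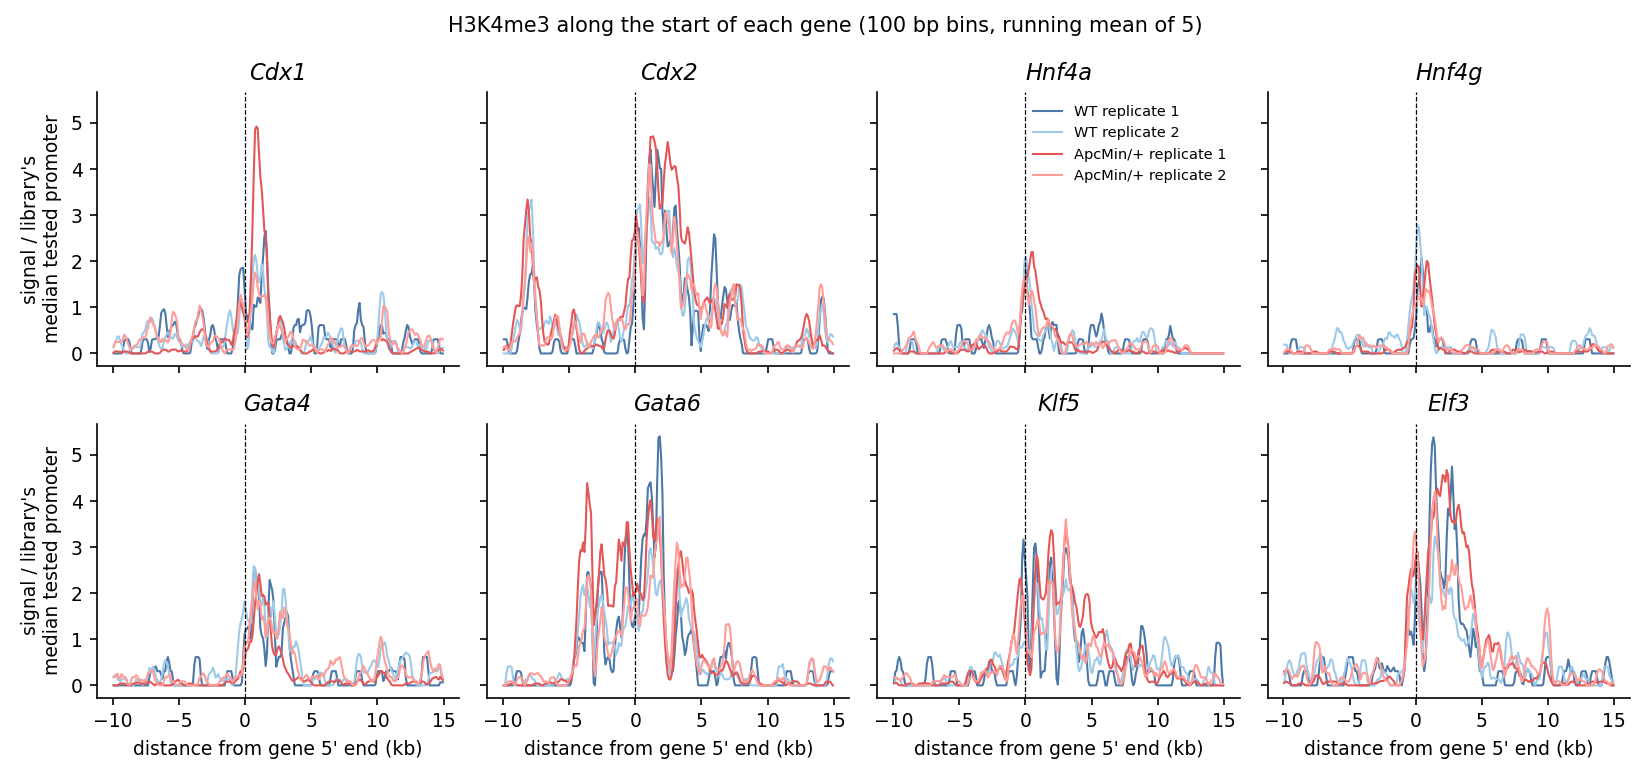
H3K4me3 signal in 100 bp bins (running mean of 5 bins), divided by each library's median tested promoter, from 10 kb upstream to 15 kb downstream of the 5′ end (dashed line). Each line is a library. Cdx2, Gata6, Klf5 and Elf3 have broad stretches over several kb, whereas Hnf4a and Hnf4g have narrow peaks at the start, and Cdx2 has a second peak upstream.

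The extent was longer in both ApcMin/+ than in both wild-type libraries at 7 of the 8 genes, against 46.0% of 10622 genes marked in all 4 libraries. Elf3 measured 5600, 5600, 9200 and 9500 bp, so that the group means differed by 3750 bp. This difference of means was 2750 bp at 10 times the mean, 2700 bp with no gap joined and 1300 bp at 20% of its own maximum. The genotypes did not overlap each time, but with no gap joined wild-type replicate 2 (5600 bp) and ApcMin/+ replicate 2 (5800 bp) lay close together. Gata6 measured 9400, 9400, 12700 and 12400 bp, but its genotypes overlapped with no gap joined and at 20% of its own maximum. Cdx2 measured 8300, 7400, 11900 and 10900 bp. Klf5 had 5300, 5400, 13700 and 8100 bp, where the ApcMin/+ replicates differed most. Hnf4a had 800, 1000, 4900 and 3700 bp, Cdx1 2600, 3100, 6000 and 3500 bp, and Hnf4g 1500, 1700, 2500 and 2000 bp. At Cdx1 the genotypes overlapped at 10 times the mean, with no gap joined and at 20% of its own maximum. Gata4 was the exception among the 8, with 3700, 4700, 4700 and 4100 bp.

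The differences between group means ranged from 200 bp at Gata4 to 5550 bp at Klf5, with a median of 3275 bp. The exact permutation test, the one used for extents, could not show them: with 2 libraries against 2 it cannot give a p below 0.333, which is the value at each of the 7 genes and for the medians (4500, 5050, 7600 and 6100 bp). At ApcMin/+ replicate 2 alone, without the library that stood apart, 7 of the 8 extents were longer than in both wild-type libraries, against 48.9% of genes marked in all 4. The limit was also set at 20% of the highest smoothed signal within 1000 bp of the 5′ end in the same library. This ties the limit to the height there, and higher signal farther along a gene did not enter it. With this limit 5 of the 8 were longer in both ApcMin/+ libraries, against 15.4% of genes marked in all 4. These were Cdx2, Hnf4a, Hnf4g, Klf5 and Elf3. The medians over the 8 genes under this limit, at 3800, 5000, 4950 and 5550 bp, overlapped between genotypes (exact permutation p = 0.667). The share of signal in enriched regions (22.6%, 11.9%, 43.3% and 16.4%) and the depth differ between the libraries beside these extents, and their part was not tested.

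**Figure D4:**
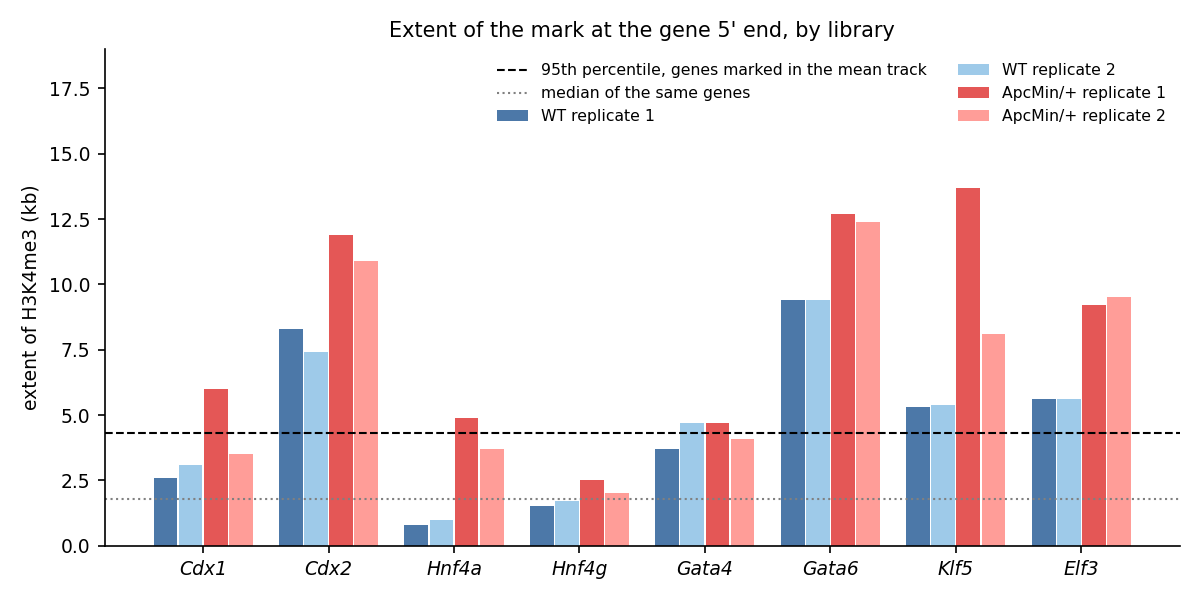
Extent of H3K4me3 at the 5′ end (kb) of the 8 genes. Bars are libraries, the dashed line is the 95th percentile (4.3 kb) and the dotted line the median (1.8 kb) of genes marked in the mean track. Both ApcMin/+ bars are above both wild-type bars at 7 genes, and Gata4 is the exception.

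For the level, all 8 genes had a higher mean in ApcMin/+, but the spread within that genotype was as large as the difference. Cdx2 was 5.85 ± 0.323 in wild type and 16.4 ± 13.3 in ApcMin/+ (SD, n = 2 each), Elf3 5.02 ± 0.650 and 15.9 ± 13.6, and Klf5 5.24 ± 2.95 and 12.9 ± 11.3. Fitted with limma on log2(signal + 1), the log2 difference (ApcMin/+ minus wild type) was 1.29 ± 0.99 (SE) at Hnf4a, the largest, and 0.47 ± 1.00 at Gata4, the smallest. The other 6 lay between 0.91 and 1.22. The median over the 8 genes was 1.04, against 0.85 over all 9930 tested promoters. No adjusted p (limma, Benjamini-Hochberg) was below 0.683, and 0 promoters passed the threshold of 0.05 (0%), with 132 promoters and 0 of the 8 genes at an unadjusted p under 0.05.

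Both ApcMin/+ libraries lay above both wild-type libraries at 3 of the 8 genes, Cdx2, Hnf4a and Elf3, against 38.5% of tested promoters, so the share was that of promoters in general. At 0 of the 8 did both lie below, against 0.161%. The higher level followed 1 library: ApcMin/+ replicate 1 was the highest at 8 of the 8 genes and at 98.6% of tested promoters. Without it the median log2 difference over the 8 genes was 0.05, with −0.12 at Gata4 and 0.46 at Hnf4a, and without ApcMin/+ replicate 2 it was 1.99.

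After each library was centred on the median of its tested promoters, which removes a difference shared by most promoters, the log2 difference was 0.44 ± 0.30 at Hnf4a, 0.36 ± 0.28 at Elf3, 0.35 ± 0.28 at Cdx1 and 0.24 ± 0.29 at Cdx2 (SE). It was 0.13 at Gata6, 0.10 at Klf5 and 0.05 at Hnf4g, and at Gata4 it turned to −0.39 ± 0.30. The limma adjusted p was 1.00 at each, and 2 of the 8 had both ApcMin/+ values above both wild-type values, against 13.1% of tested promoters. A shared rise of all promoters and a stronger enrichment of one library cannot be told apart by these values.

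**Figure D5:**
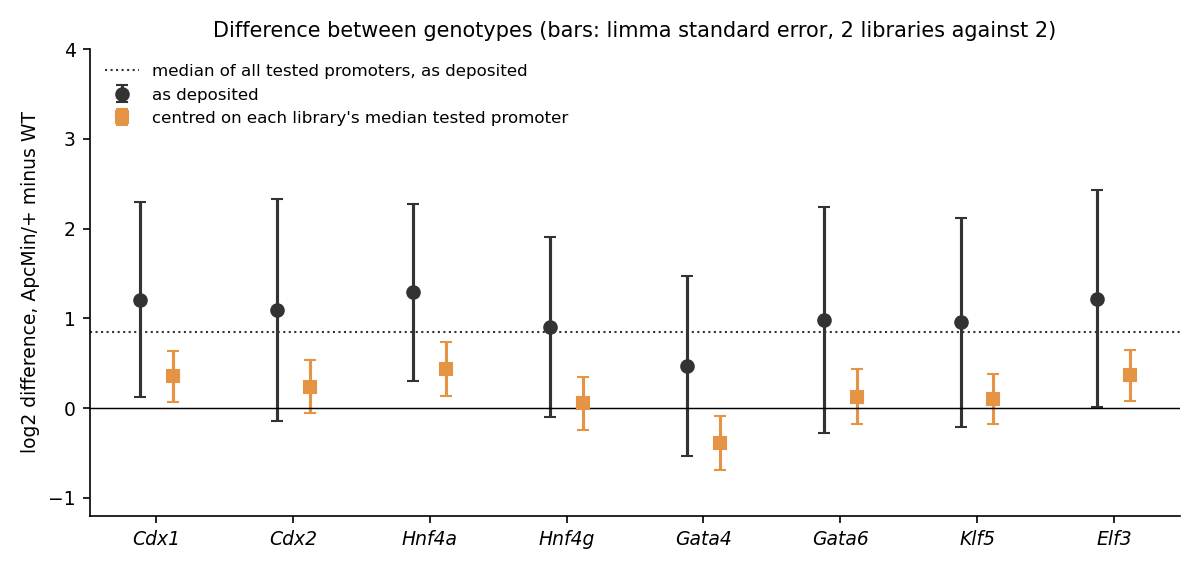
Log2 difference of the H3K4me3 signal (ApcMin/+ minus wild type) at the 8 genes, as deposited (circles) and after centring each library on the median of its tested promoters (squares). Bars are limma standard errors from 2 libraries against 2, and the dotted line is the median of all tested promoters as deposited (0.85). Centred values lie between −0.39 at Gata4 and 0.44 at Hnf4a.

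Genes around these factors in the same network were described from lists. Of 18 other epithelial transcription factors, 15 reached a mean signal of 2 and 0 passed the limma test, and 5 of these 15 had both ApcMin/+ values above both wild-type values, against 38.5% of tested promoters. Creb3l3 was the lowest of the 18, with 1.03, 0.530, 1.12 and 1.33. Among 11 paralogs listed as serving other lineages, 3 reached a mean of 2. Gata5, which is also used in gut endoderm, was the highest with 14.4, 7.99, 36.8 and 9.48, above each of the 8 genes in every library, and Gata1, the erythroid factor, was the lowest with 0 to 0.349. Of 20 enterocyte genes that these factors bind, 16 reached a mean of 2, 0 passed the test and 2 of the 16 did not overlap between genotypes, against the same 38.5%. Cdhr5, a cadherin of the brush border, was the highest with 14.8, 5.25, 29.7 and 7.12.

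A long mark was not particular to these transcription factors. The median extent was 6450 bp over the 8 genes, 4950 bp over the 20 enterocyte genes, 4550 bp over the 18 other epithelial factors and 2950 bp over 8 housekeeping genes, and 4, 13, 11 and 3 of them exceeded 4.3 kb. Of the epithelial markers, 5 of 6 did. Lists of the proximal and distal small intestine were both marked in part, at 4 of 7 and 3 of 5 genes. Fabp6 and Slc10a2, carriers of bile acids in the ileum, were at 0.117 to 1.05, and Osr2, also listed as distal, had 10.1, 6.37, 26.5 and 6.01. Of 7 genes of stomach and colon and 8 genes silent in this tissue, 0 reached a mean of 2.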

How the data were processed

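The 4 H3K4me3 CUT&RUN libraries with files were used; other assays were not analysed here. According to the labels and methods, the authors trimmed reads, aligned them to mm10 with Bowtie2, removed duplicates with Picard and kept fragments of nucleosomal size. The deposited values are signal, namely HOMER coverage per base that the authors scaled to 10000000 tags in each library, with no control subtracted and no pooling. No count model was fitted to these scaled values. Fragments were obtained as summed signal divided by the track sum per tag, and intervals (exact, 95%) cover counting error only.

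Signal was averaged 1000 bp on each side of gene 5′ ends of GENCODE M21. Promoters whose mean signal reached 2 were tested with limma 3.58.1 (R 4.3.3) with a trend on log2(signal + 1), with Benjamini-Hochberg adjustment at 0.05. The test was also run on simulated libraries that had no library-wide difference in enrichment. That check does not cover a library that stands apart, as ApcMin/+ replicate 1 does here. Enriched regions and extents used 100 bp bins with a limit of 5 times the mean of the genome and gaps of up to 500 bp closed; regions were at least 300 bp and called on the mean track, and extents used a running mean of 5 bins. Group and start comparisons were two-sided exact permutation tests. Python 3.11.15 and scipy 1.17.1 were used. Promoter sequences and motif shares came from RefSeq on GRCm38.p6, with 3 of the 8 genes matched.

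The 8 genes and all lists were chosen with earlier results of these data known. The genes named are the 8, the highest and lowest of other lists by mean signal or those a result turns on, and the 3 promoters closest to the median of the 8. Some genes that this rule names are not reported here. Alternatives were the scaling, the start, window, pseudocount, filter, replicate block, extent threshold and gap, and each library left out. The numbers 1 and 2 were not treated as pairs, since nothing in the labels links them.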

Additional observations from a re-analysis of the deposited data

How the results depend on the processing

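The count of tested promoters past the threshold (limma, adjusted p under 0.05) was 0 as deposited, 12 after centring each library on its median promoter, 2 with quantile normalization, 1 with a replicate block and 15 with centring and a replicate block, and none of the 8 genes was among them. It was 0 under the 8 other settings that used all 4 libraries. Leaving out 1 library gave 0 to 6479 of the 9930 tested promoters: 6479 without ApcMin/+ replicate 2 and 0 without any other library. Without ApcMin/+ replicate 2 the 8 genes had log2 differences of 1.06 (Gata4) to 2.34 (Cdx1), against a median of 1.58 over tested promoters. In these fits the lone library is assumed to vary like the other genotype. The median log2 difference over the 8 genes stayed above 0 under every planned setting, from 0.13 to 1.33 with all 4 libraries and from 0.05 (without ApcMin/+ replicate 1) to 1.99 (without ApcMin/+ replicate 2). It was −0.077 when centred without ApcMin/+ replicate 1, a setting added after seeing the data. The replicate block left it at 1.04 and changed the call of none of the 8 genes. The labels give no link behind the numbers, and the deviations of same-numbered libraries had a correlation of 0.196 over promoters.

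Gata4 changed sign, with −0.39 under centring (with and without the replicate block) and −0.41 under quantile normalization, where Hnf4g was −0.053. These values are for its 5′ end. At the annotated start with the highest signal, as deposited, Gata4 had 0.91, against a median of 0.86 over promoters measured that way. Without 1 library, Gata4 ranged from −0.12 to 1.06 and Gata6 from −0.058 to 2.02. Centring while leaving out 1 library was added after seeing the data. Without wild-type replicate 1 it gave 2 calls, −0.031 at Cdx2, −0.27 at Hnf4g and −0.59 at Gata4. Without wild-type replicate 2 it gave 18 calls, −0.19 at Gata4, −0.13 at Gata6 and −0.18 at Klf5. Without ApcMin/+ replicate 1 it gave 0 calls, −0.054 at Cdx1, −0.10 at Hnf4g, −0.25 at Gata4, −0.18 at Gata6 and −0.11 at Klf5, and without ApcMin/+ replicate 2 it gave 30 calls and −0.53 at Gata4. The causes were not tested.

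The median difference in extent was 3275 bp as reported and 1450 to 2175 bp under the 3 other definitions. At 10 times the genome-wide mean, 6 of the 8 genes were longer in both ApcMin/+ libraries, against 41.4% of genes marked in all 4. With no gap joined 5 of the 8 were, against 48.9%, and at 20% of own maximum 5 of the 8, against 15.4%. At Gata4 it was −50 bp at 10 times the genome-wide mean, −150 bp with no gap joined and −700 bp at 20% of its own maximum, and −300 to 700 bp without 1 library. Wild-type replicate 1, with 8 to 30 fragments at these 5′ ends, limits the precision of single values.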
